A study of Mus musculus with 22 samples.

Results

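Imprinted genes are transcribed mainly from the copy inherited from 1 parent. The 40 genes described here are a list of imprinted mouse genes, matched by symbol to the 24421 genes of the count table. No cutoff on a measured value was used, but earlier results of these data were known when the list was made. All 40 had a row in the table. Of these, 38 had enough counts to be tested, among 15027 genes tested in all. For 36 of the 38 the KO and control libraries overlapped in level, and the other 2 members stand beside 7.41% of all genes tested that did not overlap. The edgeR test passed none of the 38 at an adjusted *P*-value of 0.05, nor any other gene, the disrupted *Prdm16* included (0.0%). The non-coding RNA *Kcnq1ot1* had the smallest unadjusted *P*-value of the members, 0.026, and a log2 fold change of 0.92 that was 0.39 without 1 KO library, F731. A pair of neighbours at the far end of the *Dlk1*-*Meg3* domain, *Dio3* and *Dio3os*, were higher in every KO library while the members of that domain overlapped between the groups. Of all genes tested, 3.86% were likewise above all controls in every KO library.

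RNA was sequenced from E13.5 mouse embryos (the day of gestation), from tissue that the sample labels call forebrain and the methods of the study call cortex. The KO group (n = 3 libraries) held homozygous *Prdm16* mutants, in which the gene is disrupted in the whole embryo rather than in 1 cell type. The study uses 2 gene-trap alleles for these, cGT and cGTreinv, which it describes as null and kept by outcrossing to FVB/NJ. The sources used here do not give which allele each embryo carried. The control group (n = 3 libraries) held embryos that the sample labels call heterozygous or wild type, whereas the methods of the study call them wild type. PRDM16 is a zinc finger transcription factor of radial glia, the stem cells of the developing cortex. The reads were summed over both copies of each gene and no parental cross was recorded, so the values are total levels, and which parental copy they came from was not measured. In bulk forebrain RNA, fewer cells of a type and less RNA per cell cannot be told apart.

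An imprint is a difference in DNA methylation between the maternal and the paternal copy, laid down in the germ line at a control region and kept through development by proteins such as ZFP57 and TRIM28. One control region usually sets several neighbouring genes, often through a long non-coding RNA transcribed from 1 copy that silences protein-coding neighbours on the same copy. Many imprinted genes are known for their roles in growth and in the brain, where *Ube3a* and *Grb10* show imprinting that depends on the cell type.

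Start regions of 3 genes are printed because the results below turn on them: *Kcnq1ot1*, the member with the smallest *P*-value, *Peg3*, whose start lies 147 bases from that of its neighbour *Usp29*, and *Dio3*, the gene next to the *Dlk1*-*Meg3* members. Each window runs from 250 bases before to 50 bases after the start of the RefSeq transcript on build GRCm38.p6, is written 5′ to 3′ on the strand of the gene, and has every CG, the dinucleotide that carries the methylation of an imprint, in capitals.
*Kcnq1ot1* (chr7:143296498-143296797, minus strand): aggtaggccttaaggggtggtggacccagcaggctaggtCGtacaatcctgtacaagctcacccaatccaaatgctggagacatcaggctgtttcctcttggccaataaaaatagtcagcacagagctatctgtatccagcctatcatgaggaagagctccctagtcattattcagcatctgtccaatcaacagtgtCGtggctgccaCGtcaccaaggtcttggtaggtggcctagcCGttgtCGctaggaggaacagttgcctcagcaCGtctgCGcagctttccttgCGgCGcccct
*Peg3* (chr7:6730370-6730669, minus strand): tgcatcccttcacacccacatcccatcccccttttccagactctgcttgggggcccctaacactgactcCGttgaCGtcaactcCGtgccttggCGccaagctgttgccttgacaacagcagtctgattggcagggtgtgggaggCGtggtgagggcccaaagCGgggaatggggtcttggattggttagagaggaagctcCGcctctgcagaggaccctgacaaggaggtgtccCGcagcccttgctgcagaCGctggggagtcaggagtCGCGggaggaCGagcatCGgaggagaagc
*Dio3* (chr12:110278980-110279279, plus strand): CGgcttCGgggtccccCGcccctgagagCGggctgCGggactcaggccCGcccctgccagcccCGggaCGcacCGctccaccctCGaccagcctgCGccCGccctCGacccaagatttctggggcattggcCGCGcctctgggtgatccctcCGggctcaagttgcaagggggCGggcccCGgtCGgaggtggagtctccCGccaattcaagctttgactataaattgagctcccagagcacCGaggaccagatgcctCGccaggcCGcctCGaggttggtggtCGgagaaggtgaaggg

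Windows were given for 32 of the 40 members, 47 windows in all, since several genes have more than 1 start. Their median CG count was 13, against 7 over all 32851 windows. The letters TGCCGC, which ZFP57 binds when the CG within them is methylated, were searched on both strands and stood in 11 of the 47 windows (23.4%) against 11.6% of all windows. Those 11 belong to *Nnat*, *Calcr*, *Mest*, *Nap1l5*, *Zim1*, *Snrpn*, *Plagl1*, *Grb10*, *Commd1* and *Meg3*. The YY1 letters GCCATNTT, likewise on both strands, stood in 2 of the 47 windows (4.26%), those of *Ube3a* and *Mkrn3*, against 6.05% of all windows. Neither set of letters was in the *Kcnq1ot1*, *Peg3* or *Dio3* window printed above. A match is a description of the letters only.

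The libraries held 16638433 to 41140614 counts in KO embryos and 28569526 to 43066648 counts in control embryos. *Prdm16* itself had 9.6, 6.58 and 6.82 CPM (counts per 1000000 counts, scaled between libraries by the TMM method) in KO F727, F728 and F731, against 58.2, 45 and 37.8 CPM in control F722, F724 and F725, which follows the labels. The library KO F731 stood apart: it had the fewest counts, the ribosomal precursor *Rn45s* took 7.386% of them, and 22991 genes had at least 1 count, against 17795 to 18320 in the other 5 libraries. The *Rn45s* share was also raised in KO F727, at 2.43%, against 0.2241% to 0.615% in the remaining 4. The 10 erythroid marker genes summed to 5330 CPM in KO F731 and to at most 1870 CPM elsewhere, and none of them was at 0 in all libraries. Forebrain markers summed to 2340 to 2950 CPM in KO embryos and 2950 to 3090 CPM in control embryos, with none of the 15 absent. *Xist* was at 616 CPM in KO F731 and 1280 CPM in control F725 and at most 0.406 CPM in the other 4, where the Y-linked genes were expressed, so each group held 1 female and 2 males. Log2 fold changes without KO F731 are given beside those over all libraries where they turned sign or moved by more than 1.5-fold.

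Together the 40 genes took 0.845%, 0.9% and 0.751% of all counts in the KO libraries F727, F728 and F731, against 0.857%, 0.887% and 0.945% in the control libraries F722, F724 and F725. The groups overlapped, and KO F731 was the lowest. *Nnat*, which encodes the small membrane proteolipid neuronatin, made up 43.9%, 42.5% and 49.8% of the members' counts in the KO libraries and 43.5%, 42.2% and 42.4% in the control libraries. Per kilobase of exon, *Nnat* had by far the highest level of the members, at a mean of 2130 CPM per kb in KO and 2030 CPM per kb in control embryos. Next came *Ndn* (necdin, a MAGE family protein of postmitotic neurons), with 167 CPM per kb in KO and 153 in control embryos. *Snrpn* (the splicing protein SmN) had 112 CPM per kb in KO and 111 in control embryos. *Gnas* (the stimulatory G protein alpha subunit) had 106 in KO and 117 in control embryos, and *Mest* (an alpha/beta hydrolase family protein) 74 in KO and 85.2 in control embryos. At the other end, *Airn*, *Zim1*, *Rtl1*, *Calcr*, *Ddc*, *Kcnk9* and *Kcnq1ot1* lay below 0.5 CPM per kb in both groups. *Phlda2*, a limiter of placental growth, had 1 count in KO F728 and 0 in the other 5 libraries, and *Slc22a18*, a solute carrier, had 2, 1 and 19 counts in KO and 2, 4 and 1 in control embryos. These 2 genes fell below the filter on low counts and were not tested.

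**Figure D1:**
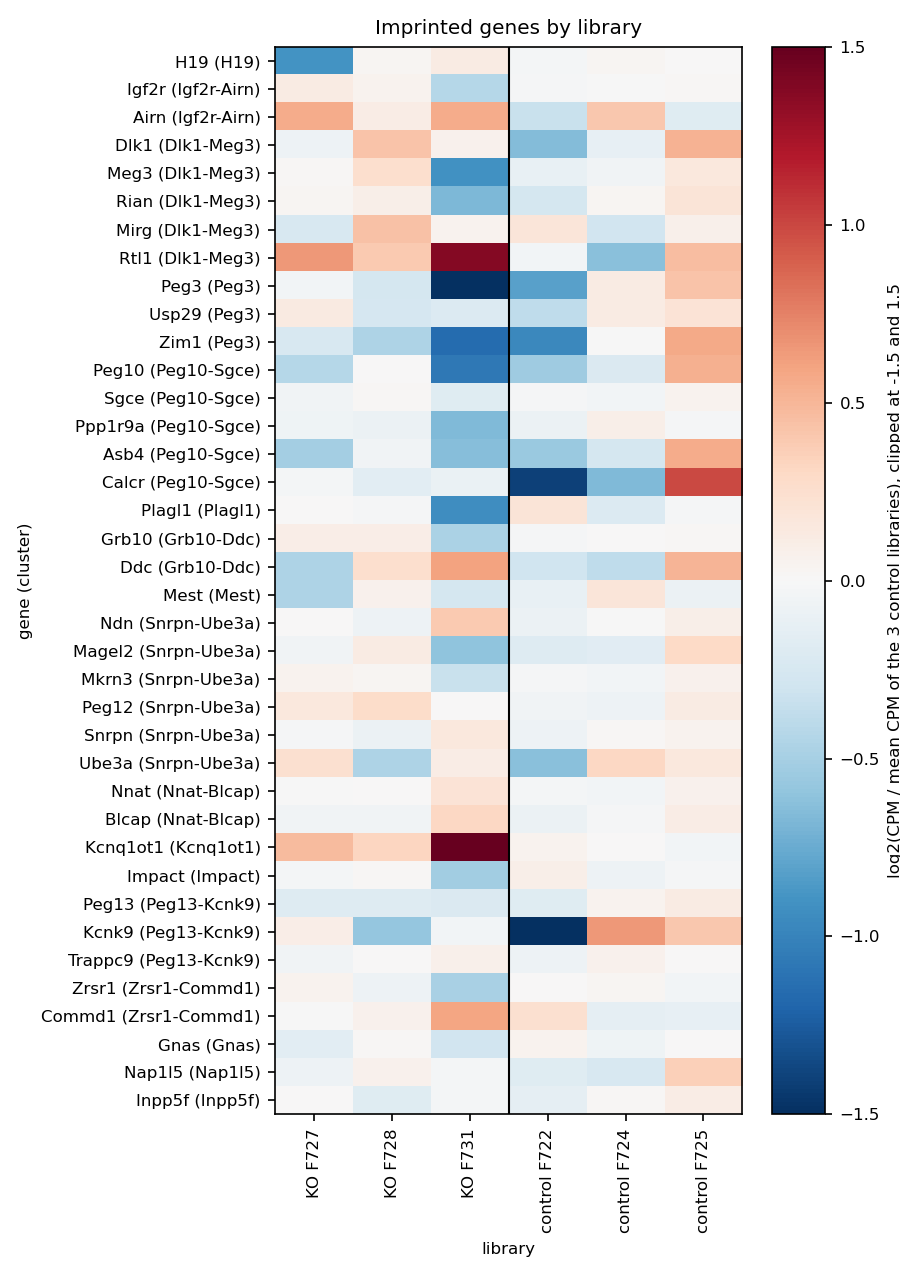
Level of the 38 imprinted genes tested in each library, as log2 of CPM over the mean CPM of the 3 control libraries (colour, clipped at -1.5 and 1.5), with KO libraries left of the line and control libraries right of it. *Kcnq1ot1* is above the control mean in all 3 KO libraries, while *Peg3*, *Zim1*, *Peg10*, *Meg3* and *Plagl1* are darkest blue in KO F731.

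In the comparison of KO with control embryos, edgeR called 0 of the 38 members at an adjusted *P*-value of 0.05, and 0 of all 15027 genes tested (0.0%). *Prdm16* itself, with a log2 fold change of -2.61, had an adjusted *P*-value of 0.0536 in edgeR and 7.1e-24 in DESeq2. The lack of an edgeR call therefore does not show that a gene was unchanged. DESeq2 called 18 of 23322 genes (0.0772%) and no member among them. At an unadjusted *P*-value of 0.05, edgeR put 1 member higher in KO embryos, against 1.26% of all genes, and 0 members lower, against 0.665% of all genes. DESeq2 at the same unadjusted limit put 1 member higher, against 3.02% of all genes, and 0 lower, against 0.39%. Every KO library was above every control library for 1 member (3.86% of all genes) and below for 1 member (3.55% of all genes). The first was *Kcnq1ot1* and the second *Peg13*.

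The median log2 fold change over the 38 members was -0.07, with 13 above and 25 below 0, beside a median of -0.0037 and 50.8% below 0 over all genes tested. Without KO F731 the members' median was -0.02, again with 25 below 0, and the sign of 12 members turned. The 95% interval lay within a 1.5-fold change in either direction for 18 of the 38 members (47.4%), against 55.3% of all genes. For the other 20 a change of 1.5-fold was not excluded. The intervals were narrowest for *Trappc9* (-0.21 to 0.23 on the log2 scale), *Nnat* (-0.17 to 0.30) and *Snrpn* (-0.23 to 0.26), and widest for *Kcnk9* (-2.01 to 1.64), which had at most 0.446 CPM in any library.

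**Figure D2:**
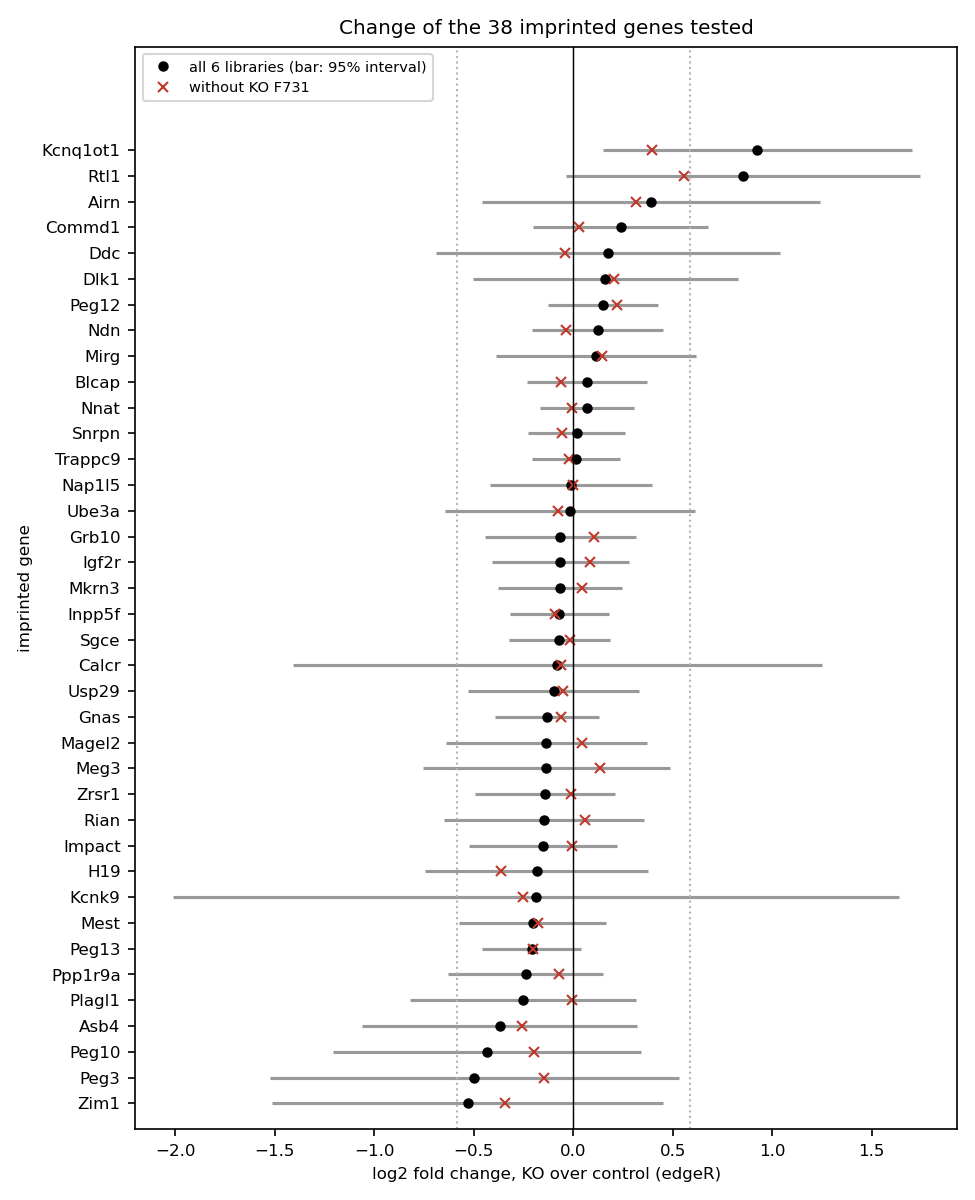
Log2 fold change, KO over control, of each imprinted gene tested, from edgeR over all 6 libraries (points, with 95% intervals as bars) and without KO F731 (crosses). Dotted lines mark a 1.5-fold change. The interval of *Kcnq1ot1* (0.15 to 1.70) is the one that does not reach 0, and its value without KO F731 is 0.39.

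*Kcnq1ot1* is a paternally transcribed RNA that starts within the *Kcnq1* gene on the opposite strand and silences neighbouring genes on the same copy (GRCm38 chromosome 7, 143203458 to 143296549, minus strand). It had 19.1, 17.3 and 43.4 CPM in KO F727, F728 and F731, against 14.3, 13.8 and 13.4 CPM in control F722, F724 and F725. All KO libraries were above all control libraries, the controls lay within a 1.07-fold range, and KO F731 was the highest of the KO libraries. From high to low the KO libraries ran F731, F727, F728 and the control libraries F722, F724, F725. Both groups had the same order for the share of *Rn45s*, in which KO F728 (0.5219%) lay below control F722 (0.615%). A link was not tested. The log2 fold change was 0.92 ± 0.33 (SE, edgeR over all genes, adjusted *P* = 0.863, unadjusted *P* = 0.026). Without KO F731 it was 0.39, with a smaller unadjusted edgeR *P*-value of 0.0052 and an adjusted one of 1.0. Within the 4 male libraries the log2 ratio of mean CPM was 0.37, and between the 2 female ones it was 1.69.

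What a *Kcnq1ot1* count stands for is limited by its position. The annotated RNA is an unspliced run of 93.1 kb inside *Kcnq1*, and whether counting used strand is not given in the sources used here. *Kcnq1*, a potassium channel gene, had 0.908, 0.754 and 1.93 CPM in KO and 0.61, 0.603 and 0.612 CPM in control embryos. *Kcnq1* was thus also above all controls in every KO library and highest in KO F731, with a log2 fold change of 0.91 ± 0.43 (SE, edgeR adjusted *P* = 0.863) and of 0.45 without KO F731. It made up 4.17% to 4.54% of the summed counts of the pair in KO and 4.09% to 4.36% in control libraries, so the share was alike while the levels differed. Of the genes that *Kcnq1ot1* is known to silence in the placenta, the members *Phlda2* and *Slc22a18* were at or near 0 in both groups and could not be read. *Tssc4*, *Cd81* and *Osbpl5*, which are outside the members, had ample counts, and their groups overlapped. *Tssc4* and *Cd81* were singled out after their values were seen, and these genes do not stand for the whole domain. *Tssc4* had a log2 fold change of 0.24 (0.02 without KO F731), *Cd81* of 0.02 (0.12 without it) and *Osbpl5* of -0.19 (-0.13 without it).

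*Peg13*, a paternally transcribed non-coding RNA that lies in an intron of *Trappc9*, was the member below all controls in every KO library. It had 130, 130 and 128 CPM in KO embryos, against 131, 155 and 162 CPM in control embryos. Control F722 lay next to the KO values, and the difference rested on control F724 and F725. The log2 fold change was -0.21 ± 0.11 (SE, edgeR adjusted *P* = 0.863, unadjusted *P* = 0.087) and -0.20 without KO F731. With upper-quartile scaling, or with genes under 1 CPM left out before scaling, the groups overlapped. The maternal partners *Trappc9*, a subunit of a vesicle trafficking complex, and *Kcnk9*, a potassium channel, had log2 fold changes of 0.01 and -0.19, and of -0.02 and -0.25 without KO F731. *Peg13* took 66.8% to 69.0% of the counts of the *Peg13* and *Trappc9* pair in KO libraries and 69.7% to 72.8% in control libraries.

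The *Dlk1*-*Meg3* domain on chromosome 12 runs over 828 kb from *Dlk1* to *Dio3*, with protein-coding genes expressed from the paternal copy and non-coding RNAs from the maternal copy. *Dlk1*, a non-canonical Notch ligand, had 38.3, 54.5 and 42.3 CPM in KO embryos, against 25.7, 37.2 and 58.2 CPM in control embryos. *Meg3*, the first of the maternal RNAs, had 238, 279 and 125 CPM in KO embryos, against 217, 226 and 262 CPM in control embryos. *Rian*, the host of small nucleolar RNAs, had 299, 312 and 183 CPM in KO embryos, against 245, 299 and 336 CPM in control embryos. In all 3 genes the groups overlapped, and KO F731 was the lowest library for *Meg3* and *Rian*. The log2 fold changes were 0.16 for *Dlk1*, -0.14 for *Meg3* and -0.15 for *Rian*, and 0.21, 0.14 and 0.06 without KO F731, with no *P*-value under 0.05. *Mirg*, the host of a microRNA cluster, was at 5.97, 9.5 and 7.3 CPM in KO and 7.96, 5.74 and 7.41 CPM in control embryos, a log2 fold change of 0.12. *Meg3* made up 40.6% to 47.2% of the summed counts of *Meg3* and *Rian* in KO libraries and 43.1% to 47.0% in control libraries.

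*Rtl1*, a retrotransposon-derived gene needed in the placenta, was the second highest member by fold change but low in level. It had 79, 77 and 52 counts in KO embryos (2.17, 1.81 and 3.58 CPM), against 46, 40 and 56 counts in control embryos (1.34, 0.893 and 1.9 CPM). Control F725 was above KO F728, so the groups overlapped, and KO F731 was the highest. The log2 fold change was 0.85 ± 0.38 (SE, edgeR adjusted *P* = 0.863, unadjusted *P* = 0.057), and 0.56 without KO F731. The unadjusted edgeR *P*-value was 0.127 without KO F731, 0.031 without control F725 and 0.040 without KO F728.

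On the maternal copy, microRNAs are transcribed across the *Rtl1* exon from the opposite strand, so that they pair with the *Rtl1* transcript along their whole length. The annotation places 6 hairpins there, and RefSeq gives 11 mature forms with 11 different seeds for them. The 4 forms of miR-127 and miR-136 are shown because these microRNAs are known in mouse to guide cleavage of the *Rtl1* transcript, the member of this domain with the largest log2 fold change, and capitals mark the seed, bases 2 to 8.
mmu-miR-127-5p: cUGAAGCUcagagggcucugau
mmu-miR-127-3p: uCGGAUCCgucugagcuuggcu
mmu-miR-136-5p: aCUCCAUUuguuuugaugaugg
mmu-miR-136-3p: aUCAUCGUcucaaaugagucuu
No seed is shared among the 11 forms. All 6 hairpins had 0 counts in every library, and the 61 microRNA rows between *Dlk1* and *Dio3* together had 31, 40 and 35 counts in KO and 10, 19 and 20 counts in control embryos. These sums are raw counts, not scaled for library size. Each KO sum was above each control sum, although KO F731 had the fewest counts in all. No row had more than 14 counts in any library, and the difference was not tested. These libraries hold long RNA, and mature microRNAs were not measured in them.

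At the far end of the domain, 526 kb beyond *Mirg*, lie *Dio3*, which encodes the deiodinase that inactivates thyroid hormone and is expressed preferentially from the paternal copy, and its antisense neighbour *Dio3os*. *Dio3* had 13.8, 11.7 and 14.0 CPM in KO embryos, against 4.88, 6.07 and 8.32 CPM in control embryos. *Dio3os* had 6.27, 5.23 and 4.89 CPM in KO embryos, against 1.95, 2.16 and 2.65 CPM in control embryos. For both genes all KO libraries were above all control libraries, as for 3.86% of all genes tested, and KO F731 did not stand apart. The log2 fold changes were 1.04 ± 0.21 and 1.29 ± 0.20 (SE), with adjusted *P*-values of 0.863 and 0.479 in edgeR and 0.0487 and 0.0224 in DESeq2. Since the groups did not overlap, KO had to be above control within each sex too, which adds no further evidence. The log2 ratios of mean CPM for *Dio3* and *Dio3os* were 1.22 and 1.48 in the male libraries. Between the 2 female ones they were 0.755 and 0.884.

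*Dio3os* made up 25.8% to 31.2% of the counts of the *Dio3os* and *Dio3* pair in KO and 24.1% to 28.5% in control libraries. The starts of these 2 genes lie 896 bases apart on opposite strands. For the 6 other flanking genes listed, 5 before *Dlk1* and 1 beyond *Dio3*, the log2 fold changes lay between -0.0041 and 0.20 over all libraries and all groups overlapped. The 5 members between them had a median of 0.12 and none had a *P*-value under 0.05. The difference between *Dio3* and these members was not tested.

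**Figure D3:**
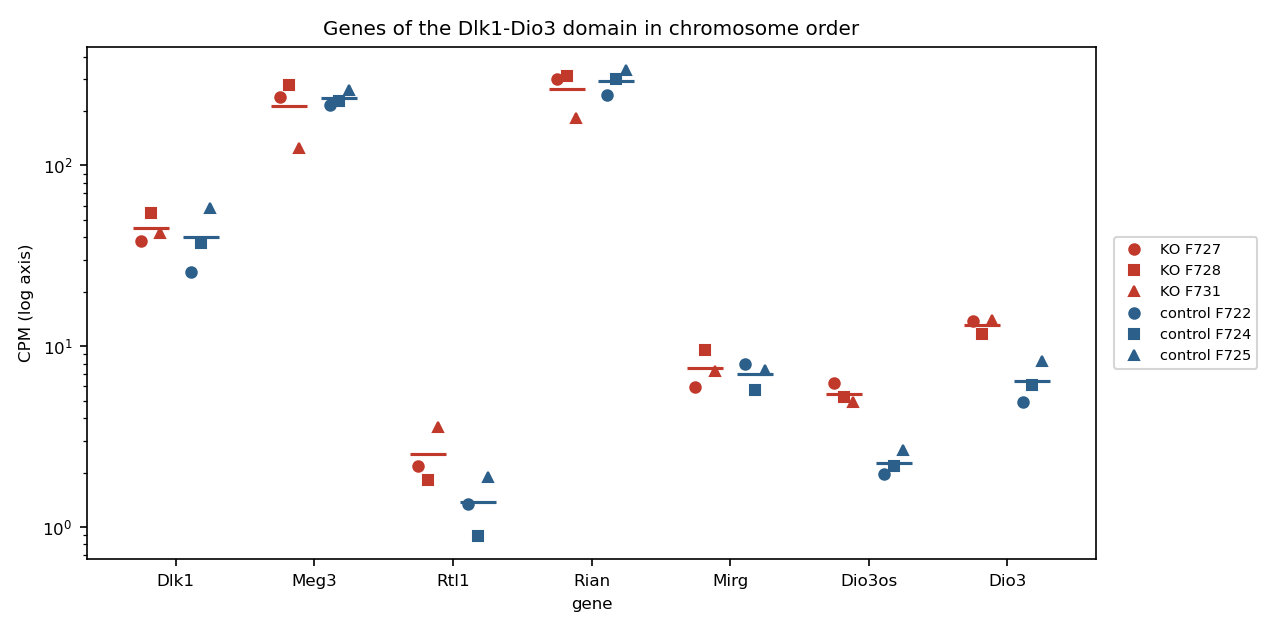
CPM (log axis) of 5 imprinted genes of the *Dlk1*-*Meg3* domain and of *Dio3os* and *Dio3*, in chromosome order, for each KO library (left, red) and control library (right, blue), with the group mean as a line. KO and control points are separate for *Dio3os* and *Dio3* and mixed for *Dlk1*, *Meg3*, *Rtl1*, *Rian* and *Mirg*.

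In the *Peg3* domain on chromosome 7, *Peg3* and *Zim1* had the lowest log2 fold changes of the members over all 6 libraries. *Peg3*, a paternally expressed zinc finger protein, had 87.9, 75.2 and 27.8 CPM in KO embryos, against 51.3, 98.6 and 121 CPM in control embryos. *Zim1*, a maternally expressed zinc finger protein, had 1.82, 1.56 and 0.964 CPM in KO embryos, against 1.1, 2.14 and 3.19 CPM in control embryos. In both genes KO F731 was the lowest KO library, control F722 the lowest control library, and the groups overlapped. The log2 fold changes were -0.50 ± 0.44 for *Peg3* and -0.53 ± 0.42 for *Zim1* (SE), and -0.15 and -0.34 without KO F731, where *H19* was lower.

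*Usp29*, a ubiquitin-specific peptidase family member whose start is 147 bases from that of *Peg3*, had 36.9, 28.3 and 29.2 CPM in KO embryos, against 25.8, 36.7 and 38.8 CPM in control embryos. Its log2 fold change was -0.10, and -0.05 without KO F731. Although both genes are read from the start region printed above, *Peg3* made up 70.4%, 72.7% and 48.8% of their summed counts in the 3 KO libraries, against 66.6%, 72.9% and 75.7% in the control libraries. The share was low in KO F731 alone.

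In the *Peg10*-*Sgce* domain on chromosome 6 all 5 members had log2 fold changes below 0, and none had a *P*-value under 0.05. *Peg10*, a retrotransposon-derived gene of the paternal copy, had 115, 155 and 73.8 CPM in KO embryos, against 107, 133 and 225 CPM in control embryos. *Sgce*, which encodes epsilon-sarcoglycan and starts 99 bases from *Peg10* on the other strand, had 19.1, 20.0 and 17.4 CPM in KO embryos, against 19.6, 19.3 and 20.5 CPM in control embryos. *Sgce* was thus even across all 6 libraries while *Peg10* spanned a 2.1-fold range in either group. The log2 fold change of *Peg10* was -0.43 ± 0.33 (SE) and -0.20 without KO F731, and that of *Sgce* was -0.07 ± 0.11 and -0.02 without it.

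Among the maternally expressed genes of the same domain, *Asb4*, an ankyrin repeat protein, had 18.7, 25.8 and 17.1 CPM in KO embryos, against 18.2, 22.3 and 39.4 CPM in control embryos. *Calcr*, the calcitonin receptor, had 1.65, 1.51 and 1.58 CPM in KO embryos, against 0.639, 1.07 and 3.36 CPM in control embryos. The KO values of *Calcr* lay within a 1.09-fold range and the control values within a 5.27-fold range. *Ppp1r9a*, which encodes the actin-binding protein neurabin-1, had 71.1, 70.0 and 46.7 CPM in KO embryos, against 69.8, 78.8 and 73.5 CPM in control embryos, with KO F731 alone low. The log2 fold changes were -0.37 for *Asb4*, -0.08 for *Calcr* and -0.24 for *Ppp1r9a*, and -0.26, -0.06 and -0.07 without KO F731.

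Control embryos differed among themselves in an ordered way for several of these genes. *Peg10*, *Asb4*, *Calcr*, *Dlk1*, *Peg3* and *Zim1* were all lowest in control F722, higher in F724 and highest in F725, and 17 of the 38 members (44.7%) had that order, against 19% of all genes tested. *Nkx2-1*, a transcription factor of the ventral forebrain and hypothalamus, ran in the same order, at 8.88, 24.2 and 65.0 CPM in control embryos, and was at 12.5, 26.5 and 14.4 CPM in KO embryos. It was singled out from the 15 forebrain markers after its values were seen. In that list *Dlx1* and *Dlx2* had the same order, *Emx1* and *Pax6* the reverse, and the others neither. Of the KO libraries, F728 was highest for *Nkx2-1*, *Peg10*, *Asb4* and *Dlk1*, and F727 for *Calcr*, *Peg3* and *Zim1*. The 13 diencephalon and hypothalamus markers as a whole summed to 93.9 to 98.4 CPM in KO and 79.8 to 108 CPM in control embryos, with none at 0 in all libraries. Among these 13, *Gbx2*, *Six3*, *Hmx2* and *Hmx3* had the same order in control embryos, *Rax* the reverse, and the others neither. *Hmx2*, *Hmx3* and *Rax* had few counts. The part that the dissected region had in the spread of the imprinted genes was not tested.

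**Figure D4:**
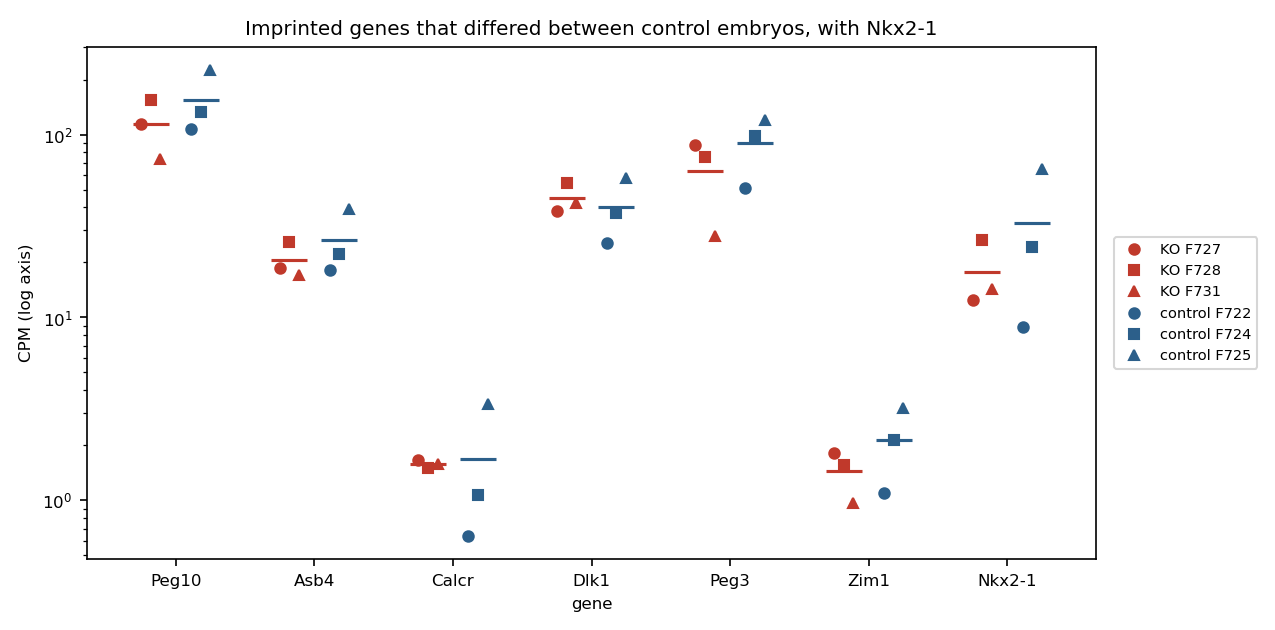
CPM (log axis) of 6 imprinted genes and of the ventral forebrain gene *Nkx2-1* for each KO library (left, red) and control library (right, blue), with the group mean as a line. *Nkx2-1* was singled out from the forebrain markers after its values were seen. Control F725 (triangle) is the highest and control F722 (circle) the lowest control library for all 7 genes.

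The 6 members of the neuronal domain around *Snrpn* and *Ube3a* on chromosome 7 overlapped between the groups, with a median log2 fold change of 0.0015. *Ndn* had 569, 536 and 743 CPM in KO embryos, against 534, 563 and 601 CPM in control embryos. *Snrpn*, whose exons are shared with *Snurf*, had 236, 224 and 266 CPM in KO embryos, against 227, 241 and 248 CPM in control embryos. *Snurf* had nearly the same counts as *Snrpn* in every library, and whether shared reads were counted for both genes is not given. *Ube3a*, the ubiquitin ligase that is silenced on the paternal copy in neurons, had 64.4, 39.6 and 58.9 CPM in KO embryos, against 35.3, 68.0 and 60.9 CPM in control embryos. KO F731 was the highest library for *Ndn* and *Snrpn*, and *Ube3a* had 1 low library in each group. Their log2 fold changes were 0.12 ± 0.14, 0.02 ± 0.10 and -0.01 ± 0.27 (SE), and -0.04, -0.06 and -0.08 without KO F731.

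Of the other paternally expressed genes there, *Magel2*, a MAGE family protein, had 29.4, 33.1 and 20.0 CPM in KO embryos, against 26.6, 27.0 and 37.5 CPM in control embryos. *Mkrn3*, a makorin ring finger protein, had 21.7, 21.4 and 16.6 CPM in KO embryos, against 20.7, 20.3 and 21.8 CPM in control embryos. *Peg12*, a FRAT family protein, had 38.6, 42.1 and 34.7 CPM in KO embryos, against 33.4, 32.8 and 37.8 CPM in control embryos. KO F731 was the lowest KO library for these 3 genes, the opposite of *Ndn* and *Snrpn*. The log2 fold changes were -0.14, -0.07 and 0.15, and without KO F731 they were 0.04, 0.04 and 0.22. That of *Peg12* then had an unadjusted *P*-value of 0.049 in edgeR (adjusted *P* = 1.0), where 1.44% of all genes were higher at that limit.

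The genes that act on insulin-like growth factor signalling overlapped between the groups. *Igf2r*, the receptor that clears insulin-like growth factor 2, had 80.7, 76.8 and 55.2 CPM in KO embryos, against 73.6, 74.1 and 75.1 CPM in control embryos. *Grb10*, an adaptor that restrains insulin and growth factor receptors, had 429, 428 and 286 CPM in KO embryos, against 394, 400 and 403 CPM in control embryos. In both, KO F727 and F728 were above all controls and KO F731 below them. Log2 fold changes over all libraries were -0.06 for each, and 0.08 and 0.10 without KO F731, with no overlap, as for 7.37% of all genes then, and unadjusted *P*-values of 0.221 and 0.119 from edgeR. *Airn*, the antisense RNA that silences *Igf2r* on the paternal copy, had 0.963, 0.707 and 0.964 CPM in KO embryos, against 0.523, 0.87 and 0.578 CPM in control embryos, a log2 fold change of 0.39 ± 0.36 (SE).

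*H19*, a maternally expressed non-coding RNA, had 44.8, 84.8 and 90.9 CPM in KO embryos, against 81.5, 84.8 and 83.7 CPM in control embryos. The control values lay within a 1.04-fold range, and KO F727 was 2.03-fold below KO F731. The log2 fold change was -0.18 ± 0.24 (SE) over all libraries and -0.36 without KO F731, and it ran from -0.37 to 0.07 over the fits that leave out 1 library. Markers of meninges and mesenchyme summed to 37.6 to 116 CPM in KO and 41.2 to 93.4 CPM in control embryos, and none of the 13 was at 0 in all libraries. Their part in the *H19* values was not tested.

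*Plagl1*, the zinc finger transcription factor ZAC1, had 193, 189 and 101 CPM in KO embryos, against 220, 166 and 189 CPM in control embryos. *Mest* had 244, 352 and 280 CPM in KO embryos, against 310, 381 and 317 CPM in control embryos. *Impact*, an inhibitor of GCN2 activation, had 23.1, 23.9 and 16.4 CPM in KO embryos, against 25.1, 22.3 and 23.3 CPM in control embryos. *Plagl1* and *Impact* were low in KO F731 alone, and *Mest* was low in KO F727. In order, the log2 fold changes were -0.25, -0.20 and -0.15, and -0.0066, -0.17 and -0.0050 without KO F731.

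*Nnat* and *Blcap* form a domain in which the small *Nnat* gene lies in an intron of *Blcap*. *Nnat* had 3680, 3710 and 4280 CPM in KO embryos, against 3650, 3600 and 3890 CPM in control embryos. *Blcap*, a small membrane protein gene, had 128, 128 and 165 CPM in KO embryos, against 125, 131 and 144 CPM in control embryos. *Nnat* took 96.3% to 96.7% of the summed counts of the pair in KO and 96.4% to 96.7% in control libraries, the steadiest share of the pairs compared. Both log2 fold changes were 0.07, and they were -0.0054 and -0.06 without KO F731.

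In another domain with a gene inside a gene, *Zrsr1*, an RNA-binding protein gene that lies within *Commd1* on the other strand, had 17.1, 15.7 and 11.8 CPM in KO embryos, against 16.6, 16.8 and 16.1 CPM in control embryos. *Commd1*, a gene of copper homeostasis and endosomal sorting, had 47.8, 50.3 and 72.7 CPM in KO embryos, against 56.6, 43.7 and 44.2 CPM in control embryos. KO F731 was the lowest library for the guest gene and the highest for the host, and *Zrsr1* took 14.0% of their counts there, against 22.7% to 27.8% in the other 5 libraries. Annotated exons of the pair overlap, so without strand reads of one could count for the other. The same holds for *Mest*, *Gnas*, *Ube3a* and *Usp29*, whose exons overlap those of the opposite-strand genes *Copg2*, *Nespas*, *Snhg14* and *Zim3*. For *Zrsr1* and *Commd1*, log2 fold changes were -0.14 and 0.24, and -0.01 and 0.03 without KO F731.

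The remaining members overlapped between groups. *Gnas* had 1170, 1330 and 1070 CPM in KO embryos, against 1360, 1250 and 1310 CPM in control embryos, summed over its several promoters, a log2 fold change of -0.13 ± 0.11 (SE) and of -0.06 without KO F731. *Inpp5f*, a phosphoinositide phosphatase, *Nap1l5*, a nucleosome assembly protein-like gene, and *Ddc*, the decarboxylase that makes dopamine and serotonin, had log2 fold changes of -0.07, -0.01 and 0.17, and of -0.09, -0.0010 and -0.04 without KO F731. *Ddc* had at most 2.82 CPM in any library.

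Genes were classed by the copy they are known to express. The classes are approximate, and *Ube3a*, whose imprinting depends on the cell type, was counted as maternal. By the copy expressed, the 14 maternally expressed genes tested had a median log2 fold change of -0.11, with 4 above and 10 below 0. The 20 paternally expressed genes had a median of -0.07, with 8 above and 12 below 0. The 4 genes set apart as depending on isoform or tissue, *Grb10*, *Ddc*, *Gnas* and *Inpp5f*, had a median of -0.07. Without KO F731 these medians were -0.06, -0.0060 and -0.05. The median of a set differed between libraries of a group with a spread of 0.097 for the maternal and 0.1 for the paternal genes (pooled SD, log2 scale), so the maternal median was about as far from 0 as that spread and the paternal median closer.

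KO F731 was the lowest of the 6 libraries for 17 of the 38 members (44.7%, against 38.5% of all genes tested) and the highest for 11. Its deviation moved with gene length. Relative to the mean of the other 5 libraries, on the log2(CPM + 0.5) scale, the median over all genes with an annotated length was 0.382 for genes with up to 2 kb of exon, 0.135 for 2 to 4 kb, -0.0991 for 4 to 8 kb and -0.298 for longer genes. The medians of the members in the same bins were 0.0983 (n = 2), 0.13 (n = 10), -0.0603 (n = 12) and -0.359 (n = 14). *Peg3*, *Meg3*, *Zim1*, *Rian* and *Ppp1r9a* were the lowest of the members over 8 kb, *Peg10* and *Plagl1* were as low among shorter ones, and *Kcnq1ot1*, at 93.1 kb the longest of the members, went the other way. An edgeR fit with a length term for each library, added after this was seen, gave *Kcnq1ot1* a log2 fold change of 1.18, *Peg3* -0.40 and *Meg3* -0.02.

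**Figure D5:**
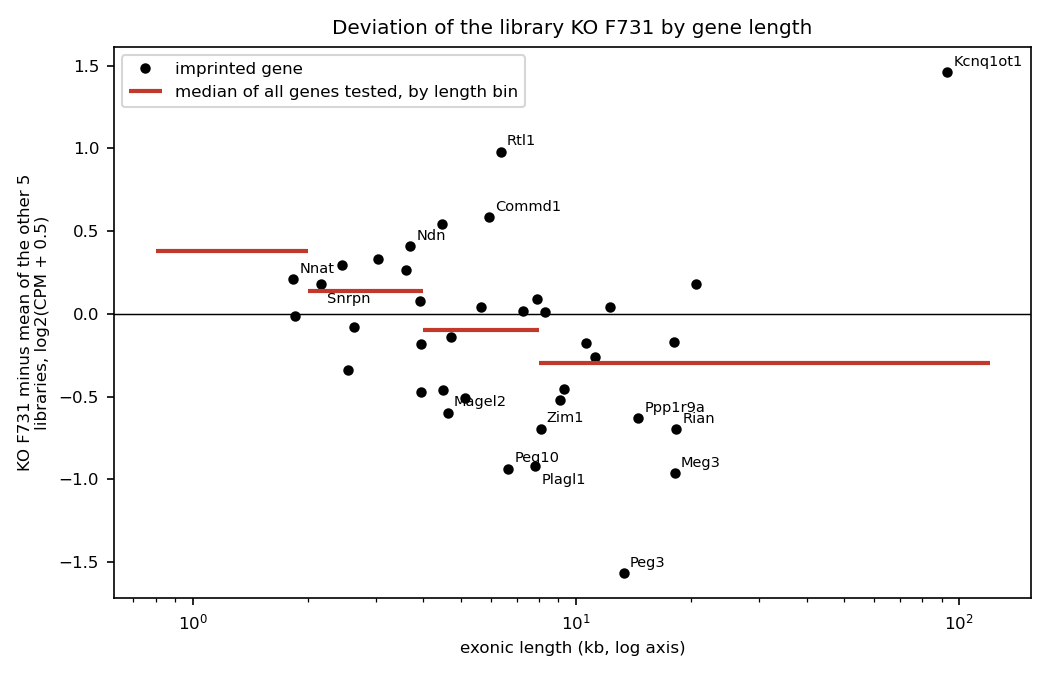
Deviation of the library KO F731 from the mean of the other 5 libraries (y axis, difference of log2(CPM + 0.5)) against exonic length (x axis, kb, log scale) for the 38 imprinted genes tested (points), with the median over all genes tested in each length bin (red lines). The line falls from 0.382 in the shortest bin to -0.298 in the longest, and *Kcnq1ot1* lies far above it.

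The genes that keep or read imprints were listed to set beside the members, among them DNA methyltransferases, ZFP57, TRIM28, CTCF and their partners. Of 29, 27 were tested, and none had an unadjusted *P*-value under 0.05 in edgeR in either direction. Their median log2 fold change was -0.16, with 25 below 0, and -0.01 without KO F731, with 15 below 0. The smallest *P*-values belonged to *Arid4a*, *Ctcf* and *Dnmt1*. *Dnmt1*, the maintenance DNA methyltransferase, had 272, 288 and 178 CPM in KO embryos, against 288, 273 and 305 CPM in control embryos, with KO F731 alone low. *Ctcf*, the insulator protein that binds control regions, had 168, 161 and 119 CPM in KO embryos, against 164, 171 and 176 CPM in control embryos.

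Of 37 further imprinted genes outside the members, 30 were tested, and their log2 fold changes had a median of 0.04. Only *Dio3* among these 30 passed an unadjusted *P*-value of 0.05 in edgeR. After *Dio3* and *Kcnq1*, the smallest *P*-values belonged to *Herc3*, the host of *Nap1l5*, with a log2 fold change of -0.28 (-0.17 without KO F731), and *Osbpl5*, with -0.19.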

How the data were processed

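The deposited table holds raw read counts per gene, which the authors made with HISAT2 on mm10 with a UCSC gene annotation. Whether counting used strand is not given in the sources used here. Of its value columns, 6 belong to the forebrain libraries, and 18 other columns were not used. Columns were matched to groups by name and carry embryo numbers. Each library is 1 embryo. Members, gene lists and tests were chosen with earlier results of these data known, the motifs and lists among them. Every member is named, and values of other genes are given for at most 4 of a list with the smallest *P*-value, plus *Dio3*, *Dio3os*, *Prdm16* and *Xist*. *Nkx2-1*, *Tssc4* and *Cd81* were singled out from their lists after their values were seen.

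Genes passing filterByExpr (minimum count 10) were fitted with edgeR 4.0.16 in R 4.3.3 (TMM scaling, robust quasi-likelihood *F*-test, Benjamini-Hochberg adjustment over all genes tested). No covariate was used. DESeq2 1.42.0, the tool of the study, limma 3.58.1 and other alternatives were run beside it. On simulated counts for 14935 genes, this edgeR fit recovered 16.4% of genes changed 1.5-fold, 52.2% changed 2-fold and 86.4% changed 4-fold. The simulation drew each gene independently and held no library-wide deviation such as that of KO F731 with gene length. Recovery in the data may therefore be lower. In the data *Prdm16*, with a log2 fold change of -2.61, had an adjusted edgeR *P*-value of 0.0536. With 3 against 3 libraries an exact permutation test of a single value cannot go below a two-sided *P* of 0.1 and was not used. A count of 3 equals 0.0697 to 0.18 CPM. Exonic lengths and positions come from GENCODE on GRCm38.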

Additional observations from a re-analysis of the deposited data

How the results depend on the processing

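The 38 members were refitted under 21 alternatives, and none had an adjusted *P*-value under 0.05 in any of them. *Kcnq1ot1* was above all controls in every alternative. Where 1 library was left out, the separation over all 6 libraries all but fixed this in advance. Its log2 fold changes were 0.39 to 1.18, with an unadjusted *P*-value under 0.05 in 18 of 21. *Dio3* and *Dio3os* had one in all 21 and an adjusted *P*-value under 0.05 in 3 each. The number of members higher at an unadjusted *P*-value of 0.05 was 2 with no filter on low counts (*Kcnq1ot1* and *Rtl1*) and 0 to 2 with 1 library left out, being 0 in edgeR without control F722 or F724. The number lower was 1 with limma-voom and sample quality weights (*Peg13*) and 0 to 2 with 1 library left out (*Peg10* and *Mest* without KO F728, *Peg13* without control F722). In edgeR without KO F731, 1.44% of all genes were higher at that limit. For most of these alternatives the share over all genes was not worked out, so these counts cannot be set against it. The number with no overlap was 1 with upper-quartile scaling or a 1 CPM filter (7.39% and 7.05% of all genes) and 3 to 8 with 1 library left out, where 11.2% to 28.4% of all genes did not overlap in edgeR. The median of the maternally expressed genes was -0.24 to 0.014 with 1 library left out, the extremes being without control F722 and F725.

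Signs turned in 93 of 796 member values, all of members within 0.37 of 0 over all 6 libraries. With sample quality weights log2 fold changes became 0.050 for *Igf2r*, 0.051 for *Meg3*, 0.0054 for *Plagl1*, 0.068 for *Grb10*, -0.052 for *Ddc*, -0.058 for *Ndn*, 0.018 for *Mkrn3*, -0.082 for *Snrpn*, -0.012 for *Nnat*, -0.086 for *Blcap*, 0.011 for *Impact* and -0.028 for *Trappc9*. With the length term they became 0.026 for *Igf2r*, 0.053 for *Usp29*, 0.042 for *Sgce*, 0.023 for *Grb10*, -0.096 for *Snrpn*, 0.17 for *Ube3a*, -0.072 for *Nnat* and 0.032 for *Inpp5f*. With limma-voom they became 0.32 for *Calcr*, 0.36 for *Kcnk9* and 0.026 for *Nap1l5*. With DESeq2 they were -0.00060 for *Snrpn* and -0.0031 for *Trappc9*, and with no filter on low counts -0.028 for *Snrpn* and -0.028 for *Trappc9*. With the 1 CPM filter they were 0.0070 for *Ube3a* and 0.0078 for *Nap1l5*, and with upper-quartile scaling 0.016 for *Ube3a* and 0.016 for *Nap1l5*. The cause was not tested.

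With 1 library left out, ranges that crossed 0 were -0.37 to 0.071 for *H19*, -0.19 to 0.084 for *Igf2r*, -0.092 to 0.51 for *Dlk1*, -0.39 to 0.14 for *Meg3*, -0.30 to 0.059 for *Rian*, -0.12 to 0.27 for *Mirg*, -0.27 to 0.0091 for *Usp29*, -0.60 to 0.017 for *Asb4*, -0.49 to 0.87 for *Calcr*, -0.18 to 0.10 for *Grb10*, -0.053 to 0.51 for *Ddc*, -0.038 to 0.21 for *Ndn*, -0.31 to 0.045 for *Magel2*, -0.16 to 0.044 for *Mkrn3*, -0.060 to 0.066 for *Snrpn*, -0.27 to 0.17 for *Ube3a*, -0.0081 to 0.10 for *Nnat*, -0.063 to 0.13 for *Blcap*, -0.71 to 0.36 for *Kcnk9*, -0.038 to 0.044 for *Trappc9* and -0.13 to 0.20 for *Nap1l5*.

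No paired analysis was possible because the columns carry embryo numbers and not the replicate numbers of the labels. With 3 embryos a group, changes under 2-fold were often not detectable, and edgeR also missed the larger fall of *Prdm16* at an adjusted *P*-value of 0.05. *P*-values measure the spread between these embryos, whose litters are not given. Lost or retained imprinting with an unchanged total cannot be seen in these counts.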
